A study of Mus musculus with 32 samples.

Results

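Transcripts of 10 genes of the bone morphogenetic protein (BMP) pathway were followed in 32 RNA-seq libraries of embryonic mouse kidney. The genes were taken by name and were matched by Ensembl identifier: the ligands Bmp2, Bmp4, Bmp5 and Bmp7, the secreted modulators Bmper, Grem1 and Chrdl1, and the pathway targets Smad6, Id1 and Id3. They are 10 of the 55806 gene identifiers in the 4 count tables, and each of the 10 was found in each table. The mice carried 1 conditional knock-in allele of Enl (Mllt1), a chromatin reader of the YEATS family, with either the T1 insertion or the T3 deletion found in Wilms tumor, on a C57BL/6J background. The study asked what these gain-of-function mutations do to gene expression while nephrons form.

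The mutation was switched on by Cre in 1 of 2 lineages. Six2-TGCtg/+ is a BAC transgene that drives Cre in nephron progenitors, and the strain has been reported to express Six3 aberrantly. Foxd1GC/+ drives Cre in stromal progenitors from a knock-in that removes Foxd1 function from that allele. Wild-type (WT) controls carried the same Cre allele with Enl+/+, so both the transgene and the Foxd1 knock-in are shared by mutants and controls. Whole E18.5 kidneys were Six2-TGCtg/+ with Enl+/+, EnlT1/+ or EnlT3/+ (2 libraries each) and Foxd1GC/+ with Enl+/+ or EnlT1/+ (3 each). Cells of each lineage were sorted by a Cre-dependent tdT reporter. Sorted Six2-lineage cells came from E14.5 and E18.5 kidneys with Enl+/+ or EnlT1/+ (3 libraries in each of the 4 groups), and sorted Foxd1-lineage cells from E18.5 kidneys with Enl+/+ or EnlT1/+ (4 each). Nothing in the labels ties a library to an embryo, so the p-values measure the spread between libraries. In a whole kidney, the mutant lineage is measured together with all other cells.

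BMPs are secreted dimers that bind paired type I and type II receptors, which phosphorylate SMAD1, SMAD5 and SMAD9. These enter the nucleus with SMAD4 and raise target genes, among them the Id genes and the inhibitory SMADs that feed back on the receptors. Gremlin and the chordin-like proteins bind the ligands outside the cell and block them, and BMPER can either block or promote their action. In the developing kidney, BMP7 is made by nephron progenitors and the ureteric tree and maintains the progenitors, BMP4 from the mesenchyme around the ureteric bud limits where buds form, and GREM1 opposes BMP4 to allow the ureteric bud to grow out and branch.

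The promoters of 4 genes are printed because Bmper and Grem1 were the modulators called in the most genotype comparisons and Smad6 and Id3 are targets. The windows run from 250 bases before to 50 bases after the RefSeq start on GRCm38.p6, 5′ to 3′ on the gene's strand. Capitals mark GC-rich letters of the kind bound by BMP-activated SMADs, GGCGCC and GGAGCC, the latter read as GGCTCC on the other strand. Bmper lies at chr9:23222826-23223125 (+), Grem1 at chr2:113758599-113758898 (-), Smad6 at chr9:64022010-64022309 (-) and Id3 at chr4:136143572-136143871 (+).
Bmper: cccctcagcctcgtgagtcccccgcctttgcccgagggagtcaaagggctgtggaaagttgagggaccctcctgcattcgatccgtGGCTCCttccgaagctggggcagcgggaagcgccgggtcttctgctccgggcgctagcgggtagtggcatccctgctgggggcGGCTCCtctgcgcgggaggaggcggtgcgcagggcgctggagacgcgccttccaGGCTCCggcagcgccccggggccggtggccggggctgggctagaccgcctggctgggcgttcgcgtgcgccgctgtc
Grem1: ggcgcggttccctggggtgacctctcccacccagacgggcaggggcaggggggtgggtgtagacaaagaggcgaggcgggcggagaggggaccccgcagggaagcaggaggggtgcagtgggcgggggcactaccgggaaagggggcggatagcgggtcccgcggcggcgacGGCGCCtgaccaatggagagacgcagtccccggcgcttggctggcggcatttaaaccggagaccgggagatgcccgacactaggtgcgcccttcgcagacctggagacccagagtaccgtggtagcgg
Smad6: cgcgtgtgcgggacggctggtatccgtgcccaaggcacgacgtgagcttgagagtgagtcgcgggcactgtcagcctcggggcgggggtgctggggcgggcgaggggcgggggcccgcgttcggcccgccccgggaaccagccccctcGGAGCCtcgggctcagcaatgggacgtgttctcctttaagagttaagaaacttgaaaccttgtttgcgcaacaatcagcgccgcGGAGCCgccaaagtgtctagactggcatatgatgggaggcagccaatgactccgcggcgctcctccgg
Id3: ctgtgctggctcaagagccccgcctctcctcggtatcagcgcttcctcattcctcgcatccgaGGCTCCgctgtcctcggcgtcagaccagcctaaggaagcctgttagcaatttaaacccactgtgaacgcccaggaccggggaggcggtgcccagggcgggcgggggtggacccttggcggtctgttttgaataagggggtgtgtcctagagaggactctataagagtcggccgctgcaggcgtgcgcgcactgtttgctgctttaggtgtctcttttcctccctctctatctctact
The Bmper window held GGAGCC 3 times, the Smad6 window 2 times and the Id3 window 1 time, and the Grem1 window held GGCGCC 1 time. RefSeq windows were matched for 6 of the 10 genes. Of these, the Bmp4 window held GGAGCC 1 time and the Bmp5 window held neither. Of 32851 windows of this length, 30.8% held GGAGCC and 11.9% held GGCGCC, so these matches describe letters that many promoters carry.

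Depth differed widely between tables. Total counts ran from 106005614 to 157266455 in whole Six2 kidneys, from 76510702 to 137888792 in sorted Six2 cells, from 67137194 to 79343015 in whole Foxd1 kidneys and from 2557443 to 3508381 in sorted Foxd1 cells, where 3 counts correspond to between 0.855 and 1.17 counts scaled to the library total (CPM). Levels are given as CPM scaled by TMM factors within each table. Six2 and Foxd1 libraries were sequenced in separate runs with different read lengths, so lineage and run cannot be told apart when levels are set side by side. Mllt1 itself was at 89.3 and 105 CPM in whole WT Six2 kidneys, at 79.7 and 82.3 with T1 and at 76.5 and 77.7 with T3, which checks the labels only in part because the alleles are knock-ins. The 7 nephron progenitor markers summed to between 1830 and 2170 CPM in sorted WT Six2 cells at E14.5, and the 8 stroma markers to between 7021 and 9429 CPM in sorted WT Foxd1 cells. The progenitor markers also summed to between 248 and 329 CPM in those Foxd1 cells, and each of the 7 had counts there. Transcripts of the Y chromosome were present in both T1 and neither T3 library of whole Six2 kidneys, so that sex and genotype overlap in part.

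Bmp7 fell in all 4 comparisons within the Six2 lineage, by 0.64 to 1.17 on the log2 scale. Bmper rose in 5 of the 6 genotype comparisons, by between 0.62 and 1.94 log2 units, in both lineages. Grem1 rose in all 4 Six2 comparisons and fell in whole Foxd1 kidneys. Bmp2 and Chrdl1 rose in sorted Six2 cells at E18.5, Bmp5 rose there and in whole Foxd1 kidneys, and Id1 rose in whole T3 kidneys and in sorted Six2 cells at E14.5.

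A gene was called at an adjusted p under 0.05 (edgeR's quasi-likelihood test, Benjamini-Hochberg over all genes tested) with a fold change over 1.5. By that rule 3 of the 10 genes were called in whole Six2 kidneys with T1, 2 higher and 1 lower, against 7.77% of all genes tested (2.88% higher, 4.88% lower). With T3 the count was 4 of 10, 3 higher and 1 lower, against 9.62% (4.34% higher, 5.28% lower), measured against the same 2 WT libraries. For sorted Six2 cells it was 3 of 10 at E14.5, 2 higher and 1 lower, against 6.40% (4.11% higher, 2.28% lower). At E18.5 it was 6 of 10, 5 higher and 1 lower, against 11.7% (6.14% higher, 5.54% lower). In sorted Foxd1 cells 7 of the 10 genes had enough counts to be tested, and 1 was called, higher, against 5.81% (3.63% higher, 2.18% lower). In whole Foxd1 kidneys 3 of 10 were called, 2 higher and 1 lower, against 10.2% (2.65% higher, 7.53% lower). The median log2 fold change of the 10 genes was 0.07 in whole Six2 kidneys with T1, 0.38 with T3, 0.49 in sorted Six2 cells at E14.5, 0.57 at E18.5 and 0.02 in whole Foxd1 kidneys, while the median over all genes tested lay between -0.01 and 0.02 in each of these.

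**Figure D1:**
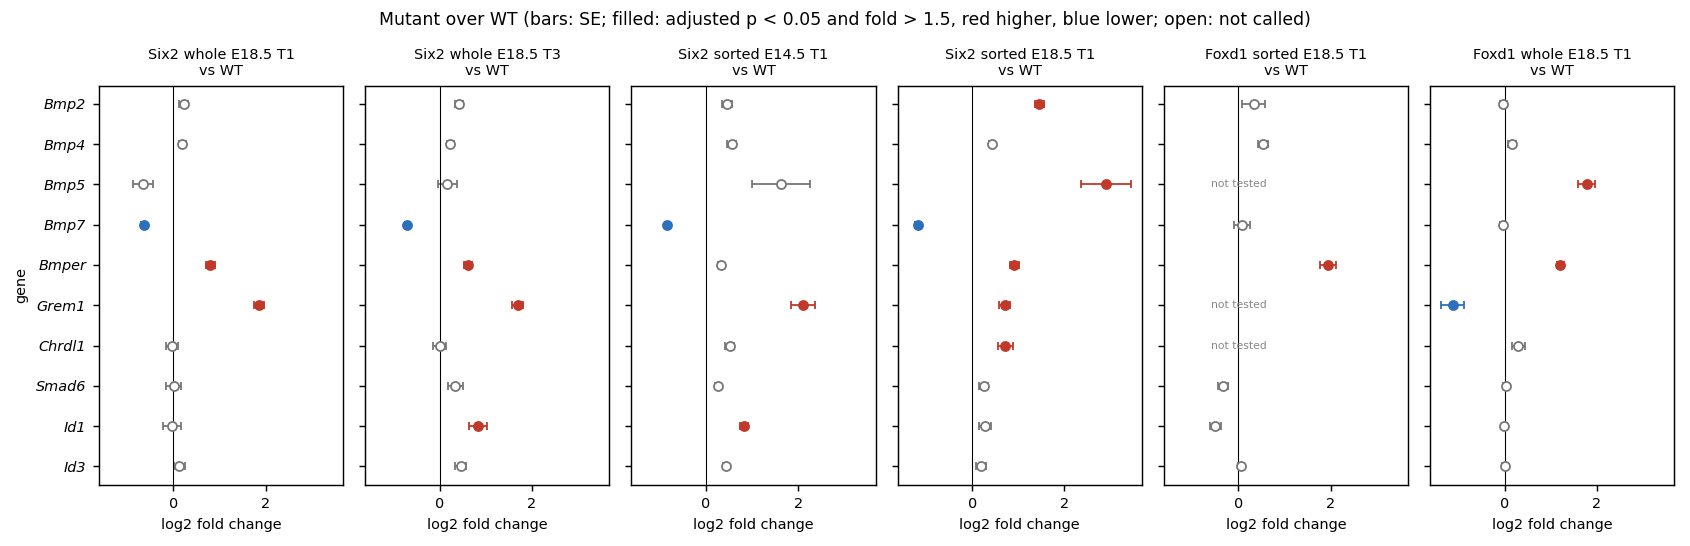
Log2 fold change of mutant over WT for each of the 10 genes in the 6 genotype comparisons, with bars of 1 SE; filled points were called (red higher, blue lower) and open points were not. Bmp7 lies left of 0 and filled in the 4 Six2 panels, Bmper lies right of 0 in each panel, and Grem1 is on opposite sides in the Six2 panels and in whole Foxd1 kidneys.

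Bmp7 (ENSMUSG00000008999, chr2:172868012-172940321, GRCm38) encodes the BMP that nephron progenitors need to survive. In whole Six2 kidneys it stood at 89.6 and 92.7 CPM in WT, 58.8 and 58.2 CPM with T1, and 55.6 and 56.2 CPM with T3. Every mutant library was below every WT library, with log2 fold changes of -0.64 ± 0.05 (SE) for T1 (adjusted p = 0.00027) and -0.71 ± 0.05 for T3 (adjusted p = 0.00015). In sorted cells at E14.5 the WT libraries held 410.4, 422 and 387 CPM and the T1 libraries 226, 234 and 214 CPM, a difference of -0.84 ± 0.05 (adjusted p = 4.6e-05). By E18.5 the WT level was 182, 178 and 184 CPM and the T1 level 85.3, 74.7 and 80.2 CPM, a difference of -1.17 ± 0.06 (adjusted p = 4.1e-08). The T1 libraries of E14.5 thus stood close above the WT libraries of E18.5, and the 12 values fell into 4 groups that did not overlap. With library size alone as the scale, the T1 difference in whole kidneys was -0.57, a fold under 1.5. In the Foxd1 lineage the groups overlapped. Sorted cells held 36.4, 27.2, 22.2 and 17.7 CPM in WT and 30.3, 25.9, 26.3 and 28.7 CPM with T1 (0.08 ± 0.17), and whole kidneys held 135, 143 and 139.8 CPM in WT and 128, 138 and 141 CPM with T1 (-0.04 ± 0.05), and neither comparison was called. The difference between the lineages in the T1 effect was 1.23 ± 0.19 log2 units (adjusted p = 6.5e-05).

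Bmp2 (ENSMUSG00000027358, chr2:133552159-133562885), a ligand that slows branching of the ureteric tree, moved the other way in sorted Six2 cells. At E18.5 the WT libraries held 55.0, 61.8 and 48.2 CPM and the T1 libraries 149, 134 and 167 CPM, a rise of 1.45 ± 0.10 log2 units (adjusted p = 2.2e-07). The lowest T1 library was above the highest WT library by more than the range of either group. At E14.5 it was at 69.9, 56.7 and 77.2 CPM in WT and 85.9, 96.0 and 95.6 CPM with T1. Those groups did not overlap, and the difference of 0.46 ± 0.11 passed the adjusted p (0.023) with a fold of 1.38, under the fold needed for a call. In whole Six2 kidneys, where it was at 11.3 and 11.9 CPM in WT, it reached 13.3 and 13.6 CPM with T1 (0.22 ± 0.09, adjusted p = 0.20) and 14.4 and 16.6 CPM with T3 (0.42 ± 0.10, adjusted p = 0.021). Neither fold was over 1.5. In the Foxd1 lineage the values were 8.33, 4.97, 7.66 and 5.06 CPM in WT and 8.49, 10.6, 5.40 and 8.08 CPM with T1 in sorted cells (0.33 ± 0.26, adjusted p = 0.48), and 15.8, 15.2 and 14.3 CPM against 14.8, 14.2 and 15.2 CPM in whole kidneys (-0.03 ± 0.08, adjusted p = 0.76). Both pairs of groups overlapped. The T1 effect in Foxd1 cells was lower than that in Six2 cells by 1.14 ± 0.27 (log2 difference -1.14, adjusted p = 0.0060).

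Bmp4 (ENSMUSG00000021835, chr14:46383520-46390669) was called in no genotype comparison by the rule above, though it rose in all sorted sets. It stood at 33.1 and 31.97 CPM in whole WT Six2 kidneys, 36.7 and 37.7 CPM with T1 and 35.8 and 40.5 CPM with T3 (0.19 ± 0.08 and 0.23 ± 0.08, adjusted p = 0.16 and 0.084). In sorted Six2 cells it held 44.5, 32.8 and 36.9 CPM in WT and 54.8, 56.2 and 55.4 CPM with T1 at E14.5, and 70.0, 66.7 and 66.5 CPM against 97.5, 89.5 and 87.6 CPM at E18.5. Sorted Foxd1 cells held 44.2, 39.5, 33.5 and 46.3 CPM in WT and 57.6, 58.5, 62.3 and 59.4 CPM with T1. In each of these sorted sets all T1 libraries were above all WT libraries. The log2 differences were 0.56 ± 0.10 (adjusted p = 0.0094), 0.44 ± 0.06 (adjusted p = 0.00025) and 0.54 ± 0.10 (adjusted p = 0.0015), all at folds between 1.36 and 1.47, and therefore none was called. With library size alone as the scale the E14.5 difference was 0.60, and without WT library 1 at E14.5 or WT library 4 of the Foxd1 cells, the differences were 0.69 and 0.60 and the folds passed 1.5. In whole Foxd1 kidneys the groups overlapped, at 35.4, 43.2 and 36.0 CPM in WT and 39.8, 44.3 and 44.0 CPM with T1 (0.16 ± 0.08, adjusted p = 0.13). Of the exon sequence of Bmp4, 3.96% is shared with Gm15217.

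Bmp5 (ENSMUSG00000032179, chr9:75775364-75900310) was the least abundant ligand in every group. Its counts are uncertain because 46.7% of its exon sequence overlaps Gm26903, an antisense gene, and the reads were counted without strand. Sorted Six2 cells at E18.5 held 0.0253, 0.318 and 0.199 CPM in WT and 1.03, 1.47 and 1.56 CPM with T1, a rise of 2.90 ± 0.53 log2 units (adjusted p = 0.0016). The lowest WT library rests on 2 counts, and leaving out each library in turn gave between 2.38 and 3.62, with the call kept. In whole Foxd1 kidneys the level went from 1.29, 1.35 and 0.937 CPM in WT to 4.60, 4.22 and 3.52 CPM with T1, a rise of 1.78 ± 0.18 (adjusted p = 9.6e-06). Sorted Foxd1 cells held 4, 2, 1 and 2 counts in the WT and 6, 7, 12 and 14 counts in the T1 libraries. Those groups did not overlap, but the gene was under the count filter there and was not tested. With no filter it was called in those cells as well. In whole Six2 kidneys it was at 0.960 and 0.988 CPM in WT, 0.617 and 0.619 CPM with T1 (-0.66 ± 0.21, adjusted p = 0.090) and 1.21 and 0.974 CPM with T3 (0.17 ± 0.21, adjusted p = 0.65). At E14.5 the sorted groups overlapped, at 0.0936, 0.350 and 0.451 CPM in WT and 1.01, 0.352 and 1.37 CPM with T1 (1.63 ± 0.63, adjusted p = 0.14). With sex of the library in the fit that difference was 2.26 and was called.

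**Figure D2:**
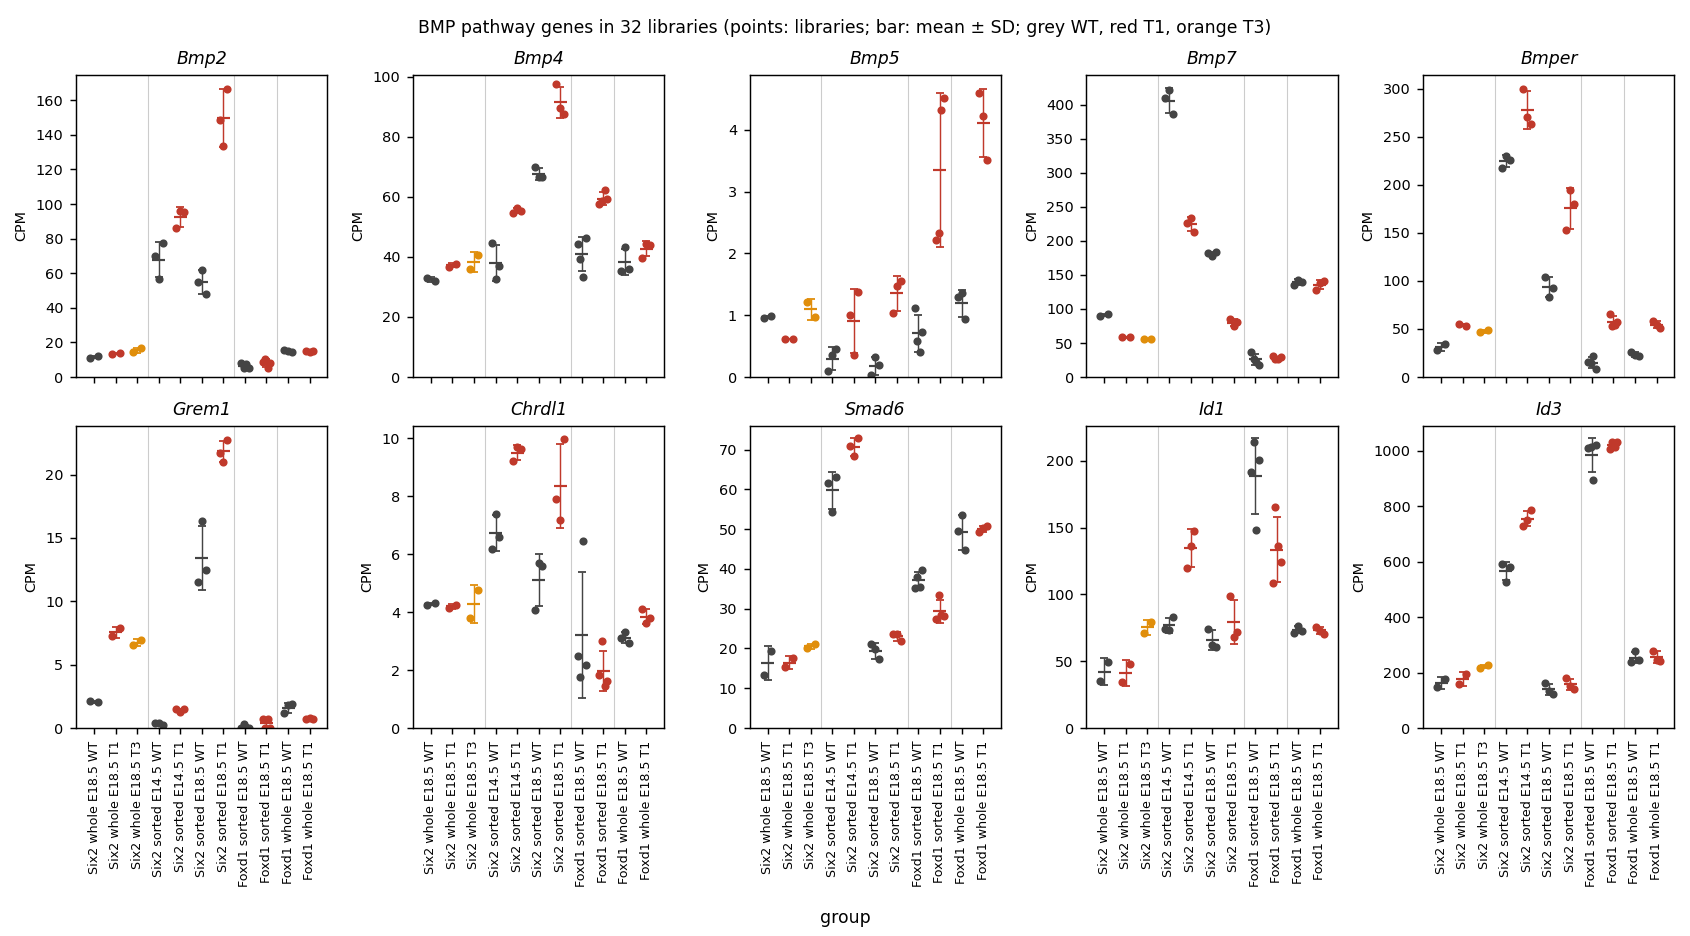
CPM of each gene in every library, in 11 groups on the horizontal axis; points are libraries, horizontal bars are means and vertical bars are 1 SD (2 to 4 libraries). Bmp7 is highest in sorted WT Six2 cells at E14.5 (387 to 422 CPM), Bmp2 in sorted T1 Six2 cells at E18.5 (134 to 167 CPM) and Id3 in sorted Foxd1 cells (893 to 1030 CPM).

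The balance between the ligands was compared within each library, with CPM divided by exon length so that genes can be set against each other. In sorted WT Six2 cells at E14.5, Bmp7 made up between 71.6% and 77.4% of the summed CPM per kilobase of the 4 ligands, Bmp2 between 11.8% and 16.2%, and Bmp4 between 10.7% and 13.99%. In T1 cells of that stage the shares were 50.6% to 53.5% for Bmp7, 23.0% to 25.6% for Bmp2 and 22.7% to 23.5% for Bmp4. At E18.5 Bmp7 took 48.4% to 51.4% in WT and 18.8% to 19.9% with T1, while Bmp2 took 15.3% to 19.0% in WT and 39.0% to 44.2% with T1. Bmp7 was thus the leading ligand transcript in WT cells of both stages and the third of the 4 in T1 cells at E18.5, behind Bmp2 and Bmp4. The ratio of Bmp7 to Bmp2 was 2.95 ± 0.41 (SD, n = 3) in WT and 0.475 ± 0.044 (SD, n = 3) in T1 cells of E18.5. The summed ligand level per kilobase was 90.7 ± 1.6 in WT and 103 ± 5.8 with T1 at E18.5, and 137 ± 3.8 and 107 ± 3.0 at E14.5, so that the sum moved less than its parts. In sorted Foxd1 cells Bmp4 led in both genotypes, with 62.7% to 77.4% in WT and 71.0% to 75.2% with T1.

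**Figure D3:**
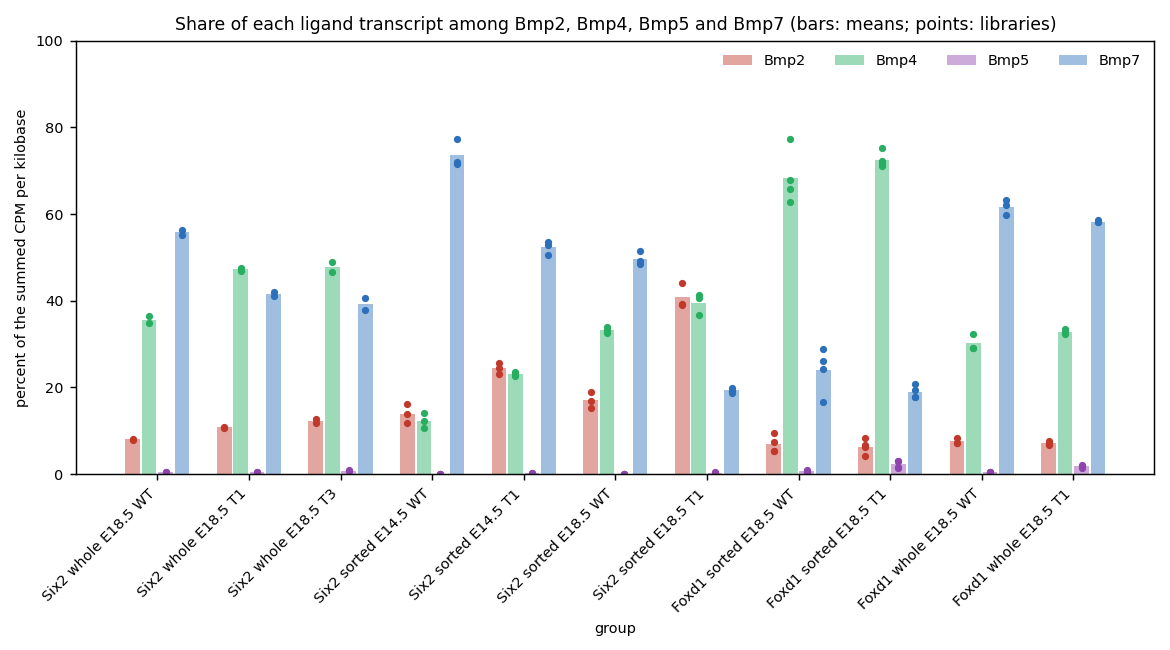
Share of Bmp2, Bmp4, Bmp5 and Bmp7 in the summed CPM per kilobase of these ligands, as a percentage on the vertical axis, for 11 groups; bars are means and points are libraries. In sorted Six2 cells at E18.5 the mean share of Bmp7 is 49.7% in WT and 19.3% with T1, and that of Bmp2 is 40.8% with T1.

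Markers of other cell types moved with these ligand values. In whole Six2 kidneys with T1, 5 of 7 nephron progenitor, 6 of 6 podocyte, 6 of 6 proximal tubule and 4 of 4 tested loop and distal tubule markers fell, and 7 of 8 macrophage markers rose. The proximal tubule markers summed to between 2423 and 2687 CPM in WT and between 388 and 481 CPM with T1. With T3 the counts of these 5 lists were the same, and 4 of 8 ureteric tree markers also fell and 1 rose, against 1 and 1 with T1. In sorted Six2 cells, 6 of 7 progenitor markers fell at each stage, from a sum of 1830 to 2170 CPM to one of 937 to 1141 CPM at E14.5 and from 599 to 774 CPM to 275 to 326 CPM at E18.5, and each of the 7 genes had counts in every group. At E18.5 markers of differentiated nephron cells fell as well. All 6 of 6 podocyte markers fell, from a sum of 2900 to 3393 CPM to one of 209 to 262 CPM. So did 6 of 6 proximal tubule markers, from 1381 to 1862 CPM to 450.4 to 491.5 CPM, and 4 of 4 tested loop and distal tubule markers. Of the 8 ureteric tree markers, 5 fell and 1 rose. Fewer cells of a type and less RNA per cell cannot be told apart in these bulk libraries. The part of these shifts in the Bmp7 difference was not tested.

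Bmper (ENSMUSG00000031963, chr9:23223076-23485200) encodes a secreted BMP-binding protein with chordin-like repeats. It was called higher in both lineages and in more of the genotype comparisons than any other gene that rose in both. Sorted Foxd1 cells held 15.6, 14.6, 21.8 and 8.32 CPM in WT and 66.1, 52.8, 54.0 and 57.5 CPM with T1, a difference of 1.94 ± 0.17 log2 units (adjusted p = 3.4e-07). In whole Foxd1 kidneys it was at 26.3, 23.3 and 21.5 CPM in WT and 58.7, 54.0 and 51.1 CPM with T1, a difference of 1.21 ± 0.08 (adjusted p = 1.8e-07). The mutant values in these sorted cells and whole kidneys were alike in size, though library kit, depth and sex of the libraries differed between the 2 sets. In neither did a mutant library reach down to a WT library. In sorted Six2 cells at E18.5 the libraries held 104, 83.1 and 92.9 CPM in WT and 153, 195 and 179.9 CPM with T1 (0.92 ± 0.10, adjusted p = 1.8e-05). Whole Six2 kidneys held 28.0 and 34.1 CPM in WT, 55.0 and 53.1 CPM with T1 (0.80 ± 0.09, adjusted p = 0.0013) and 46.5 and 48.7 CPM with T3 (0.62 ± 0.09, adjusted p = 0.0038). The T3 fold of 1.53 lay just over the threshold, and it fell under it without WT library 1 (0.49) and with sex of the library in the fit (0.48). At E14.5 sorted cells held 218, 229.7 and 226 CPM in WT and 300.1, 270.2 and 263 CPM with T1, groups that did not overlap. That difference of 0.32 ± 0.06 (adjusted p = 0.0074) was a fold of 1.25 and was not called. The T1 effect in Foxd1 cells exceeded that in Six2 cells of E18.5 by 1.01 ± 0.21 (adjusted p = 0.0020).

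Grem1 (ENSMUSG00000074934, chr2:113746164-113758646), the gremlin antagonist of BMP4 and BMP7, went in opposite directions in the whole kidneys of the 2 lineages. In whole Six2 kidneys it was at 2.14 and 2.03 CPM in WT, 7.23 and 7.87 CPM with T1 and 6.53 and 6.92 CPM with T3. The mutant groups were well above WT, by 1.86 ± 0.11 (adjusted p = 8.9e-05) and 1.69 ± 0.11 log2 units (adjusted p = 0.00011). In whole Foxd1 kidneys it was at 1.16, 1.82 and 1.86 CPM in WT and 0.683, 0.823 and 0.704 CPM with T1, and it fell by 1.13 ± 0.25 (log2 difference -1.13, adjusted p = 0.0033). The 2 kinds of kidney were sequenced in separate runs, and the difference between their effects was not tested. Sorted Six2 cells at E14.5 held 0.390, 0.371 and 0.237 CPM in WT and 1.47, 1.30 and 1.48 CPM with T1, a rise of 2.11 ± 0.27 (adjusted p = 0.0017). At E18.5 they held 11.5, 16.3 and 12.4 CPM in WT and 21.7, 21.0 and 22.7 CPM with T1, a rise of 0.71 ± 0.12 (adjusted p = 0.00097). Sorted Foxd1 cells had 0, 1, 0 and 0 counts in WT and 2, 0, 2 and 0 counts with T1, too few for a test or a fold. A difference in Grem1 was thus not detectable at that depth.

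Chrdl1 (ENSMUSG00000031283, chrX:143285674-143394262), which encodes the chordin-like antagonist ventroptin, rose in sorted Six2 cells at E18.5, from 4.05, 5.68 and 5.58 CPM in WT to 7.90, 7.17 and 9.99 CPM with T1 (0.72 ± 0.17, adjusted p = 0.0074). The call was lost without WT library 1 (0.58) and without T1 library 3 (0.56). At E14.5 the values were 6.19, 7.40 and 6.59 CPM in WT and 9.20, 9.70 and 9.62 CPM with T1. All T1 libraries were higher, and the difference of 0.52 ± 0.10 (adjusted p = 0.012) was a fold of 1.43, which passed 1.5 without WT library 2 (0.59). In whole Six2 kidneys the groups overlapped, at 4.25 and 4.31 CPM in WT, 4.14 and 4.26 CPM with T1 (-0.03 ± 0.14) and 3.81 and 4.75 CPM with T3 (0.00 ± 0.14). Whole Foxd1 kidneys held 3.12, 3.32 and 2.92 CPM in WT and 4.11, 3.61 and 3.78 CPM with T1 (0.30 ± 0.14, adjusted p = 0.11). Sorted Foxd1 cells held 9, 6, 16 and 6 counts in WT and 5, 9, 4 and 5 with T1, overlapping groups that were under the filter.

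Sorted Six2 cells with T1 also held more transcripts that mark other cells. At E14.5, 6 of 8 stroma markers rose and 1 fell, and the sum went from between 503 and 652 CPM in WT to between 941 and 1839 CPM with T1. At E18.5, 5 rose and 2 fell, and the sum went from between 332 and 568 CPM to between 813 and 940.3 CPM. At that stage 6 of 8 macrophage markers rose (36.9 to 40.0 CPM in WT, 96.5 to 109.5 CPM with T1), as did 5 of 6 red cell markers (104 to 210.2 CPM in WT, 1550 to 2273 CPM with T1). No marker of these 3 lists was at 0 counts in any group of the sorted Six2 cells. In sorted Foxd1 cells 6 of 8 macrophage markers rose, from 103 to 256 CPM in WT to 261 to 357 CPM with T1, while 2 of 8 stroma markers fell and the other 6 were not called. In the same cells 4 of 6 proximal tubule markers fell, from a sum of 112 to 287 CPM to one of 56.9 to 94.4 CPM. Of the smooth muscle and pericyte markers 2 of 6 fell, from 1706 to 2180 CPM to 1233 to 1539 CPM. Also lower were 2 of 3 tested loop and distal tubule and 1 of 5 tested ureteric tree markers, and 1 of 7 progenitor markers was higher. WT Foxd1 cells held less Bmper (8.32 to 21.8 CPM) and Grem1 (at most 0.292 CPM) than WT Six2 cells of E18.5, though in another run. In whole Foxd1 kidneys with T1, 4 of 7 nephron progenitor markers rose, from a sum of 402 to 431.5 CPM to one of 547 to 658 CPM, and 5 of 6 proximal tubule markers fell, from 2586 to 2707 CPM to 1164 to 1496 CPM, as did 4 of 6 smooth muscle and pericyte markers, from 1215 to 1533 CPM to 591.5 to 632 CPM. The part of these marker shifts in the Bmp5, Bmper, Grem1 and Chrdl1 differences was not tested.

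Among the targets, Id1 (ENSMUSG00000042745, chr2:152736251-152737410) encodes an inhibitor of bHLH transcription factors that is a standard readout of BMP signalling. It rose in sorted Six2 cells at E14.5, from 74.1, 73.4 and 83.0 CPM in WT to 119.7, 136 and 148 CPM with T1 (0.82 ± 0.08, adjusted p = 0.00053). It also rose in whole T3 kidneys, to 71.5 and 79.4 CPM from 35.0 and 49.6 CPM in WT (0.83 ± 0.19, adjusted p = 0.022). With T1 those kidneys held 34.5 and 48.3 CPM, groups that overlap (-0.03 ± 0.19). The T3 call was lost without either T3 library, at 0.92 without library 1 and 0.76 without library 2. At E18.5 sorted Six2 cells overlapped, at 74.3, 62.3 and 60.9 CPM in WT and 98.5, 68.2 and 72.2 CPM with T1 (0.28 ± 0.12, adjusted p = 0.14). In sorted Foxd1 cells the direction was down, from 192, 214, 148 and 200.3 CPM in WT to 109, 166, 136 and 124 CPM with T1. The groups overlapped, and the difference of -0.50 ± 0.12 passed the adjusted p (0.0091) at a fold of 1.41. Without WT library 3 (-0.59) or T1 library 2 (-0.61) that fold passed 1.5 and the gene was called lower. The T1 effect in Foxd1 cells was below that in Six2 cells of E18.5 by a log2 difference of -0.80 ± 0.19 (adjusted p = 0.0065). Whole Foxd1 kidneys held 71.5, 76.5 and 72.6 CPM in WT and 75.6, 72.9 and 70.6 CPM with T1 (-0.01 ± 0.05, adjusted p = 0.91).

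Id3 (ENSMUSG00000007872, chr4:136143497-136145755), a relative of Id1 with the same action, had the highest level per kilobase of the 10 genes in every group. At E14.5 sorted Six2 cells held 590.2, 527 and 580.0 CPM in WT and 730.0, 751 and 785 CPM with T1, without overlap. The difference of 0.43 ± 0.05 (adjusted p = 0.0014) was a fold of 1.35. Whole Six2 kidneys held 147 and 178 CPM in WT, 159.6 and 194 CPM with T1 (0.13 ± 0.12, adjusted p = 0.56) and 218 and 227 CPM with T3 (0.46 ± 0.12, adjusted p = 0.033, fold 1.37). Without WT library 2 the T3 difference was 0.62 and the fold passed 1.5. The remaining groups overlapped: sorted Six2 cells at E18.5 with 161, 135 and 121 CPM in WT and 181, 151 and 142 CPM with T1 (0.19 ± 0.11), whole Foxd1 kidneys with 239, 276 and 246 CPM and 279, 246 and 241 CPM (0.01 ± 0.07), and sorted Foxd1 cells with 893 to 1019 CPM and 1007 to 1030 CPM (0.05 ± 0.06). None of these 3 was called.

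Smad6 (ENSMUSG00000036867, chr9:63953076-64022059), the inhibitory SMAD that acts on BMP receptors, was called in no genotype comparison by edgeR or DESeq2 with all libraries. Sorted Six2 cells held 61.6, 54.4 and 63.2 CPM in WT and 71.0, 68.3 and 72.8 CPM with T1 at E14.5 (0.26 ± 0.07, adjusted p = 0.039, fold 1.197), and 21.1, 19.9 and 17.3 CPM against 23.7, 23.6 and 21.8 CPM at E18.5 (0.25 ± 0.10, adjusted p = 0.095). T1 libraries lay above WT libraries at both stages. In sorted Foxd1 cells they lay below, with 35.3, 38.0, 35.5 and 39.8 CPM in WT and 27.3, 33.6, 28.4 and 28.1 CPM with T1 (-0.34 ± 0.11, adjusted p = 0.059). The 2 lineages differed in this effect by -0.60 ± 0.14 (adjusted p = 0.0048). Whole kidneys held 13.3 and 19.3 CPM in WT, 15.3 and 17.5 CPM with T1 and 20.2 and 21.1 CPM with T3 in the Six2 line (0.01 ± 0.17 and 0.34 ± 0.17, adjusted p = 0.98 and 0.22, the latter 0.66 and called without WT library 2), and 49.6, 53.5 and 44.7 CPM in WT and 49.3, 50.3 and 50.7 CPM with T1 in the Foxd1 line (0.02 ± 0.07, adjusted p = 0.81).

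Early-response genes that dissociation is known to raise differed between genotypes as well, in the direction of Id1 in some sets and not in others. Over the 8 genes, whole Six2 kidneys held sums of 127 and 147 CPM in WT, 184.9 and 186 CPM with T1 and 209 and 214 CPM with T3, with 2 called higher for each allele. In sorted Foxd1 cells they summed to between 7951 and 8694 CPM in WT and between 5470 and 6811 CPM with T1, with 2 called lower. In sorted Six2 cells at E14.5 the sums overlapped, at 1981 to 3397 CPM in WT and 1669 to 2068 CPM with T1. There 1 gene was called lower, and the median log2 fold change of the 8 was 0.09. At E18.5 the sums were 3276 to 4261 CPM in WT and 2685 to 3115 CPM with T1, without overlap, with 1 called lower. In whole Foxd1 kidneys they were 229 to 270 CPM and 309 to 333 CPM, with 1 called higher. The sums and Id1 went the same way with T3 and in sorted Foxd1 cells. In sorted Six2 cells at E18.5 the sums were lower, while Id1 was higher but not called (0.28 ± 0.12). At E14.5 Id1 rose while the sums overlapped. The part of the early-response genes in the Id1 values was not tested.

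Across the lineages of sorted E18.5 cells the T1 effect differed for 5 of the 9 genes tested (adjusted p under 0.05), against 15.9% of all genes tested (8.25% higher, 7.63% lower in Foxd1 cells). It was higher in Foxd1 cells for Bmp7 and Bmper and lower for Bmp2, Smad6 and Id1. Those for Bmp4 (0.08 ± 0.12) and Id3 (-0.16 ± 0.12) did not pass. Grem1 and Chrdl1 entered the fit only through the Six2 cells and were under the count filter in the Foxd1 cells. No comparison of lineages is given for them, and Bmp5 was not tested. Grem1 and Chrdl1 are still among the 9, and the share of all genes also covers genes that entered in this way. It rests on 14869 genes, where 12717 passed the filter in Foxd1 cells alone. This contrast also carries any difference between the runs, or in depth or sex of the libraries, that acts unequally on the genotypes. Transcripts of the Y chromosome were present in 4 of 4 Foxd1 libraries of each genotype and in 1 of 3 Six2 libraries of each. The Foxd1 counts covered 55471 gene identifiers and the Six2 counts 54752, and only genes in both were compared.

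Between E14.5 and E18.5, 5 of the 10 genes changed in sorted WT Six2 cells (adjusted p under 0.01 and fold over 2), against 45.5% of all genes tested (24.8% higher, 20.6% lower), so that the count is near the background. Grem1 rose by 5.33 ± 0.19 log2 units, from at most 0.390 CPM to at least 11.5 CPM (adjusted p = 6.7e-12). Bmp7 fell by 1.17 ± 0.06 (log2 difference -1.17), Bmper by 1.26 ± 0.09 (-1.26), Smad6 by 1.62 ± 0.08 (-1.62) and Id3 by 2.02 ± 0.10 (-2.02), each with no overlap between stages. Bmp4 went up by 0.83 ± 0.09, a fold of 1.78, and was not called. The differences for Bmp2 (-0.30 ± 0.12), Bmp5 (-0.72 ± 0.71), Chrdl1 (-0.40 ± 0.15) and Id1 (-0.22 ± 0.13) did not pass. Cells of the 2 stages were freed with different enzymes, so that stage and enzyme cannot be told apart. Across the same stages 6 of 6 podocyte and 6 of 6 proximal tubule markers rose and 5 of 7 nephron progenitor markers fell, and their part in these values was not tested.

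The T1 effect itself differed between the stages for 4 of the 10 genes (adjusted p under 0.05), against 8.16% of all genes tested (3.94% with a higher and 4.22% with a lower log2 effect at E18.5). It was larger at E18.5 for Bmp2, by 1.00 ± 0.16 log2 units (adjusted p = 0.0017), and for Bmper, by 0.60 ± 0.13 (adjusted p = 0.012). It was further below 0 at E18.5 for Bmp7, by -0.32 ± 0.08 (adjusted p = 0.029). For Grem1 it was smaller at E18.5, by -1.39 ± 0.24 (adjusted p = 0.0027). The interaction for Bmp7 did not pass without WT library 3, T1 library 1 or T1 library 2 of E14.5 (-0.29, -0.32 and -0.29), and that for Bmper did not pass without WT library 2, T1 library 2 or T1 library 3 of E18.5 (0.47, 0.48 and 0.52). Bmp4 (-0.11 ± 0.12), Bmp5 (1.29 ± 0.95), Chrdl1 (0.21 ± 0.22), Smad6 (0.00 ± 0.11), Id1 (-0.53 ± 0.18, adjusted p = 0.085) and Id3 (-0.23 ± 0.14) did not pass. For Id1 the interaction did pass with DESeq2 (-0.57), with no low-count filter (-0.59) and without T1 library 1 of E18.5 (-0.77).

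**Figure D4:**
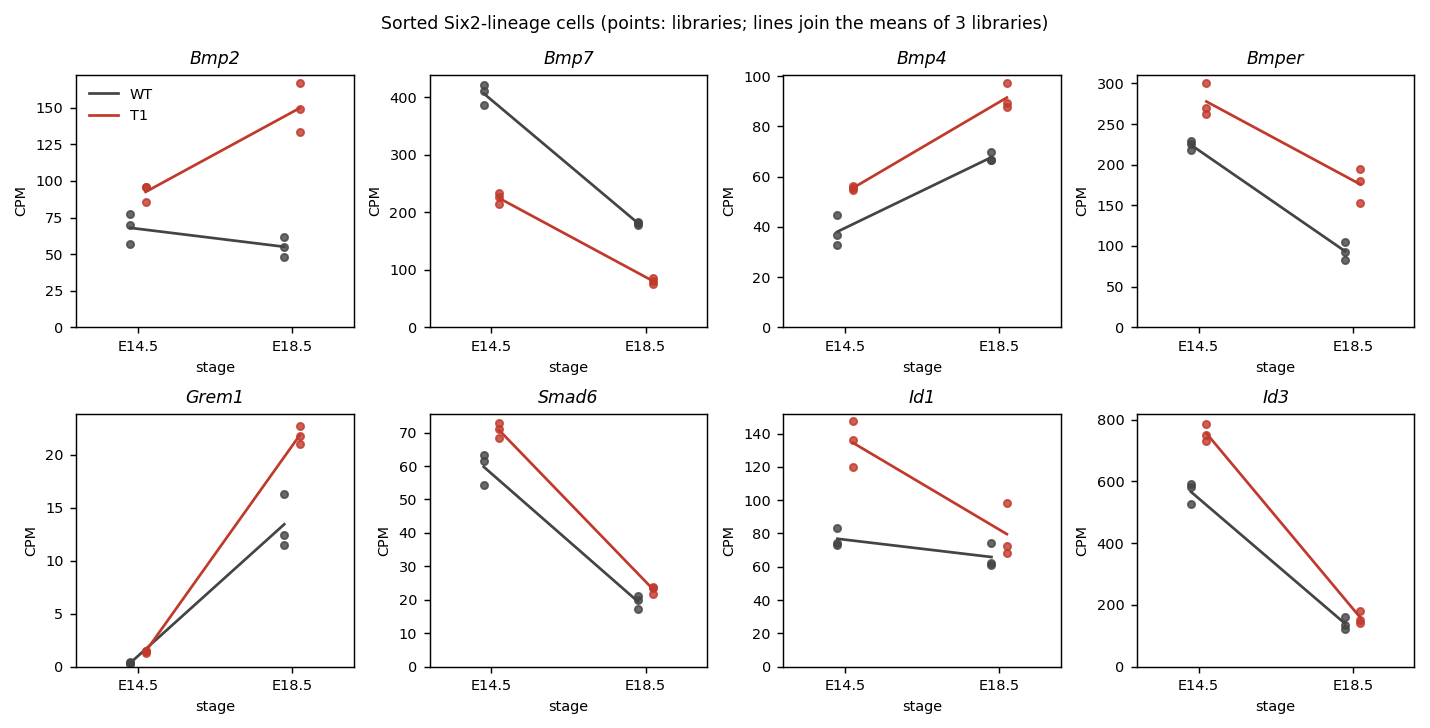
CPM of 8 of the genes in sorted Six2 cells at E14.5 and E18.5; points are the 3 libraries of each group and lines join the group means of WT (grey) and T1 (red). The lines diverge for Bmp2, which goes from 67.9 to 55.0 CPM in WT and from 92.5 to 149.8 CPM with T1.

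In order of level per kilobase, sorted WT Six2 cells at E14.5 held Id3 (316 CPM per kilobase), Bmp7 (101), Id1 (66.2), Bmper (46.4), Bmp2 (19.1), Smad6 (18.6), Bmp4 (16.9), Chrdl1 (0.995), Grem1 (0.0804) and Bmp5 (0.0740). Bmp2, Smad6 and Bmp4 are neighbours whose means differ by less than the spread of Bmp2 over its 3 libraries. By E18.5 the order was Id3 (77.7), Id1 (56.8), Bmp7 (45.1), Bmp4 (30.1), Bmper (19.4), Bmp2 (15.5), Smad6 (6.07), Grem1 (3.24), Chrdl1 (0.755) and Bmp5 (0.0449). Sorted WT Foxd1 cells held Id3 (549), Id1 (163), Bmp4 (18.2), Smad6 (11.6), Bmp7 (6.44), Bmper (3.12), Bmp2 (1.83) and less than 1 CPM per kilobase of each of the others. The ratio of Bmper to the summed ligands per kilobase was 0.213 ± 0.024 (SD, n = 3) in WT and 0.355 ± 0.061 with T1 in sorted Six2 cells at E18.5, and 0.121 ± 0.056 (SD, n = 4) and 0.327 ± 0.036 in sorted Foxd1 cells.

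A further 50 genes of the pathway were listed. Of the 48 tested in whole Six2 kidneys, 3 rose and 2 fell with T1 and 6 rose and 1 fell with T3, against 7.77% and 9.62% of all genes called. The T1 count is near that background. Sostdc1, a secreted BMP and WNT antagonist, fell by 1.69 ± 0.13 log2 units with T1 (log2 difference -1.69) and by 1.47 ± 0.13 with T3 (-1.47). Nog, the classical antagonist noggin, rose by 0.76 ± 0.17 and 1.16 ± 0.17, the ligand gene Bmp3 by 0.73 ± 0.10 and 0.91 ± 0.10, and the target Msx2, a homeobox gene, by 0.72 ± 0.17 and 0.83 ± 0.17. Sost, the sclerostin gene, fell with T1 (-0.87 ± 0.20), and with T3 the ligand genes Gdf7 (1.12 ± 0.17) and Gdf10 (0.77 ± 0.16) rose, with 1 more rising.

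Sorted Six2 cells had 9 that rose and 1 that fell at E14.5 and 8 and 2 at E18.5, of 48 tested at each stage, against 6.40% and 11.7% of all genes. At E14.5 the largest were Gdf10 (2.74 ± 0.50), Nog (1.57 ± 0.19), Chrd, the chordin gene (1.53 ± 0.17), the SMAD target Atoh8 (1.21 ± 0.14), the type I receptor Acvrl1 (1.17 ± 0.30) and Bmp3 (1.05 ± 0.19). At E18.5 they were Tll1, a protease that cleaves chordin (2.83 ± 0.29), Gdf10 (2.54 ± 0.35), Msx2 (1.38 ± 0.34), Nog (1.30 ± 0.12), Sostdc1 (-1.28 ± 0.16) and Acvrl1 (1.00 ± 0.17). Nog stood at 2.73 to 4.75 CPM in WT and 10.5 to 11.2 CPM with T1 at E14.5, and at 6.37 to 8.07 CPM and 16.8 to 19.6 CPM at E18.5. Tll1 and Gdf10 are low genes there, at no more than 0.497 and 0.713 CPM in WT cells of E18.5.

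In the Foxd1 lineage, 5 of the 38 tested in sorted cells rose and 2 fell, and 1 of the 47 tested in whole kidneys rose and 4 fell, against 5.81% and 10.2% of all genes, so that the count in whole kidneys is near the background. The ligand gene Bmp6 fell in both, by 2.18 ± 0.20 in sorted cells (log2 difference -2.18), from 14.8 to 18.1 CPM in WT to 3.23 to 3.99 CPM with T1, and by 0.66 ± 0.08 in whole kidneys (-0.66). Chrd rose in both (1.19 ± 0.29 and 1.03 ± 0.11) and Sostdc1 fell in both (-0.98 ± 0.14 and -1.21 ± 0.06). In sorted cells Nog (1.54 ± 0.32), the homeobox gene Msx1 (1.25 ± 0.33) and the type I receptor Bmpr1b (0.99 ± 0.17) rose. In whole kidneys the follistatin-like gene Fstl3 (-1.04 ± 0.16) and Gdf10 (-0.73 ± 0.11) fell. The 6 receptor SMADs, SMAD4 and SMAD ubiquitin ligases (Smad1, Smad5, Smad9, Smad4, Smurf1 and Smurf2) were called in none of the 6 genotype comparisons by edgeR, its exact test or DESeq2. At an unadjusted p under 0.05 they numbered 3 higher in whole Six2 kidneys with T1, 2 higher with T3, 1 higher and 3 lower in sorted Six2 cells at E14.5, 2 higher at E18.5, 3 lower in sorted Foxd1 cells and 4 higher in whole Foxd1 kidneys, where that p was reached by 26.2%, 30.5%, 26.1%, 30.6%, 23.3% and 43.0% of all genes tested, in the same order.

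**Figure D5:**
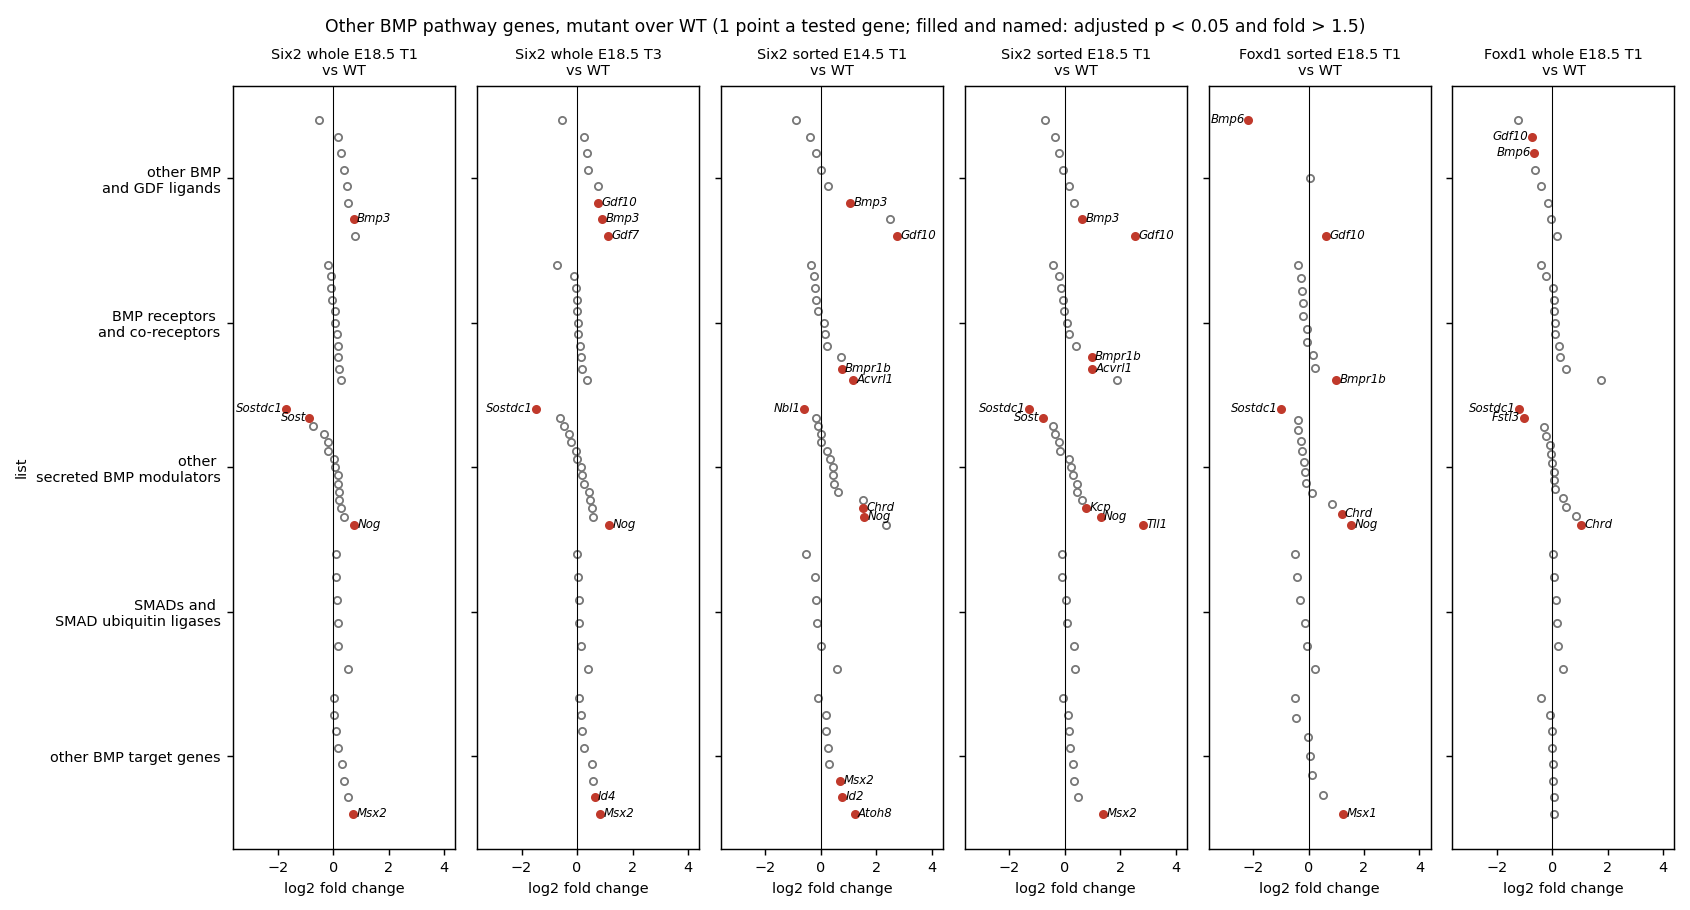
Log2 fold change of mutant over WT for the tested genes among 50 further BMP pathway genes, in 5 lists on the vertical axis and 6 comparisons; filled points with names were called. Nog is filled to the right in the 4 Six2 panels and in sorted Foxd1 cells, Sostdc1 to the left in 5 panels, and the SMAD list has no filled point.

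From E14.5 to E18.5 in sorted WT Six2 cells, 15 of these 48 tested genes rose and 6 fell, near the 45.5% of all genes called. The largest were Sostdc1 (5.32 ± 0.48), the type II receptor Bmpr2 (3.70 ± 0.12), Crim1, which encodes a membrane protein that binds BMPs (3.17 ± 0.13), Gdf5 (3.03 ± 0.74), Smad9 (2.91 ± 0.13) and the ligand gene Bmp8a (2.78 ± 0.46). The T1 effect differed between stages for 8 of 48 against 8.16% of all genes, with values of -2.78 ± 0.60 for Sostdc1, 2.36 ± 0.45 for Tll1, -1.09 ± 0.28 for Chrd, -0.74 ± 0.18 for Atoh8, -0.66 ± 0.16 for Id2 and -0.56 ± 0.15 for Bmpr2. It differed between lineages for 10 of 38 against 15.9% of all genes, led by Bmp6 (-2.16 ± 0.22), Gdf10 (-1.93 ± 0.37), Kcp (-1.09 ± 0.22), Acvrl1 (-1.06 ± 0.20), Atoh8 (-0.99 ± 0.16) and Smurf1 (-0.85 ± 0.13).

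Over the 11 group means, the genes whose log2 CPM ran most like each of the 10 were found among 12538 genes, as a description with no test, since the points share tables and runs. The closest to Bmp7 were Dtnb, Emid1 and Tspan13 (Pearson r of 0.977, 0.977 and 0.974) and the closest to Bmp2 were Wdr45, Col13a1 and Zscan18 (0.976, 0.975 and 0.973). For Bmp4 they included Hoxc6 and Hoxc4 (0.929 and 0.916), and for Bmper Dnah1, Syt11 and Foxred2 (0.960, 0.960 and 0.930). For Smad6 they were Cxxc1, Dohh and Zfp787 (0.986, 0.984 and 0.981), for Id1 Galnt2, Hist1h3i and Socs1 (0.931, 0.924 and 0.919), and for Id3 Srp14, 4921531C22Rik and Krt10 (0.994, 0.994 and 0.992). Bmp5, Grem1 and Chrdl1 did not pass the count filter in every table, and were closest to Ebf3, Tmeff2 and Thbs4 (0.935, 0.911 and 0.896), Pdcd4, Tanc2 and Tra2a (0.931, 0.923 and 0.923) and Cadm1, Igf2bp1 and Grik4 (0.970, 0.958 and 0.948). Among the 10 genes themselves the highest values were between Bmp2 and Chrdl1 (0.909), Bmp2 and Bmper (0.882) and Id1 and Id3 (0.847), and the lowest was between Grem1 and Id3 (-0.731).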

How the data were processed

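RNA was measured in 32 libraries in 11 groups. The authors made libraries from polyadenylated RNA (KAPA stranded kit for whole kidneys, SMART-Seq v4 for sorted cells), aligned reads to mm10 with HISAT2 and counted them per gene with HTSeq without strand. The 4 tables hold the counts as deposited, with no normalization. Symbols and places are from GENCODE vM21. Counts were tested in R 4.3.3 with edgeR 4.0.16 (filterByExpr with minimum count 10 and minimum total 15, TMM, quasi-likelihood F test, SE as the log2 fold change over the root of F, Benjamini-Hochberg adjustment over the genes tested), and the code was tested on simulated data with 200 changed genes. Whole Six2 kidneys were fitted together, other genotype comparisons on their own libraries, and the stage and lineage interactions on 12 and 14 sorted libraries. CPM were computed from each table with TMM factors. Genotype calls needed an adjusted p under 0.05 and a fold over 1.5, development calls 0.01 and 2, and interactions 0.05 alone. Alternatives were RLE factors, library size, no filter, the exact test, DESeq2 1.42.0, replicate number as a block, each library left out, no fold threshold and other sets of libraries in the fit, and, chosen after seeing the data, sex of the library. The 10 genes and all lists were chosen with earlier results of these data known. All 10 genes are named in every comparison, and of the further pathway genes at most the 6 called with the largest change. Results for some further genes are not reported here. Limits from counts cover counting error only.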

Additional observations from a re-analysis of the deposited data

Results flagged for a closer look

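With 4 libraries in each group of sorted Foxd1 cells, 20 sets of values were checked for a library standing apart, and 3 were found where chance gives about 1 in 20. They were Chrdl1 in WT, with 1 library at 6.45 CPM against at most 2.50 CPM in the others, Id3 in WT, with 1 library at 893 CPM against at least 1011 CPM, and Grem1 in WT, where 1 library at 0.292 CPM rests on 1 count. The other Grem1 libraries held 0 counts, so that any count would stand apart and this set cannot be held against the chance rate.

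The T1 effect differed between E14.5 and E18.5 in sorted Six2 cells, by the interaction test, for Bmp2 (1.00 log2 units, adjusted p = 0.0017), Bmp7 (-0.32, adjusted p = 0.029), Bmper (0.60, adjusted p = 0.012) and Grem1 (-1.39, adjusted p = 0.0027). It differed between Foxd1 and Six2 cells of E18.5 for Bmp2 (-1.14, adjusted p = 0.0060), Bmp7 (1.23, adjusted p = 6.5e-05), Bmper (1.01, adjusted p = 0.0020), Smad6 (-0.60, adjusted p = 0.0048) and Id1 (-0.80, adjusted p = 0.0065), where lineage and run cannot be told apart. Every p here is from edgeR's quasi-likelihood test.

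In whole kidneys, 2 genes had opposite directions with T1 in the lineages with no overlap between WT and mutant libraries, and the difference was not tested. The share of all genes with this pattern is not given, so the count cannot be set against a background. With 2 libraries a group in the Six2 line and 3 in the Foxd1 line, groups often stand apart with no difference between genotypes. Bmp5 was at 1.78 in the Foxd1 line and -0.66 in the Six2 line with T1, where it was not called (adjusted p = 0.090, edgeR), while with T3 it was at 0.17 with overlapping groups. Grem1 was at -1.13 in the Foxd1 line and at 1.86 with T1 and 1.69 with T3 in the Six2 line.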

How the results depend on the processing

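Of 1319 values of the 10 genes under the alternatives, 1252 kept their direction and their side of the threshold, 13 lost a call, 17 gained one and 37 changed direction, all 37 in genes that were not called. With no fold threshold, the number of the 10 genes called went from 3 to 9 in sorted Six2 cells at E14.5. In sorted Foxd1 cells it went from 1 to 3. The share of all genes called by that rule is not given, so these counts cannot be set against a background. In edgeR's quasi-likelihood test, an unadjusted p under 0.05 was reached by 26.1% and 23.3% of all genes tested in these 2 comparisons. In sorted Foxd1 cells the count was 2 with no low-count filter, where 583 of 29222 genes were called higher and 396 lower. Leaving out libraries there gave between 1 and 2, with 2 without WT library 3, WT library 4 or T1 library 2. In the other 7 comparisons the count stayed within 1.5 times its value. With library size alone the direction turned for Chrdl1 (0.047) and Id1 (0.040) in whole Six2 kidneys with T1, Id1 in whole Foxd1 kidneys (0.0037) and Bmp4 between lineages (-0.0047). With sex in the fit it turned for Id1 with T1 (0.24) and Chrdl1 with T3 (-0.0084) in whole Six2 kidneys. For Smad6 between stages it turned with RLE factors (-0.035), no filter (-0.052) and DESeq2 (-0.036). Leaving out libraries turned the direction in whole Six2 kidneys with T1 for Chrdl1 (-0.036 to 0.013), Smad6 (-0.23 to 0.33), Id1 (-0.28 to 0.26) and Id3 (-0.012 to 0.29), with T3 for Chrdl1 (-0.16 to 0.16), in sorted Foxd1 cells for Bmp7 (-0.060 to 0.30), in whole Foxd1 kidneys for Bmp7 (-0.064 to 0.0032), Smad6 (-0.045 to 0.090), Id1 (-0.031 to 0.023) and Id3 (-0.054 to 0.078), between stages for Smad6 (-0.14 to 0.063) and between lineages for Bmp4 (-0.019 to 0.13). The cause was not tested.

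With the replicate number as a block the counts of genes called were those of the fit without it (3, 4, 3, 6, 1 and 3 in the genotype comparisons, 5 in development, 4 between stages and 5 between lineages), and 1 value changed direction, Chrdl1 in whole T3 kidneys (-0.0039). The numbers gave no sign of pairing: deviations of same-numbered libraries from their group means correlated at between -0.0791 and 0.0997 over 19 pairs, with 0 over 0.1. In whole Six2 kidneys, with 2 libraries in each group, the deviations mirror each other, so values repeat among these pairs. The correlations do not settle whether the libraries were paired.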
